A study of Homo sapiens with 6 samples.

Results

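The nucleophosmin family and nucleolin are acidic histone- and RNA-binding proteins, several of them major components of the nucleolus. The 4 genes, NPM1, NPM2, NPM3 and NCL, were taken by symbol from a count table of 28307 genes. RNA was sequenced from OCI-AML3, an established human acute myeloid leukaemia line known to carry a mutant NPM1 allele beside the normal one. All 6 libraries have the genotype label WT. Cells received either a control siRNA (siControl, 3 libraries) or an siRNA named for the mutant form of NPM1 (siNPM1c, 3 libraries). Both were given at 10 nM with a lipid reagent, and total RNA was taken on day 3. Both groups therefore share the lipid, the dose and the mutant allele. The labels do not say whether the 3 libraries of a group came from separate cultures, so p-values measure how far these libraries spread, and that spread may be technical.

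Nucleophosmin, the product of NPM1, is an abundant chaperone that moves between nucleolus, nucleus and cytoplasm. It helps to assemble ribosomes, binds histones and holds the tumour suppressor ARF in the nucleolus. In leukaemia, a short insertion in the last coding exon of NPM1 removes tryptophan residues that anchor the protein in the nucleolus and creates a nuclear export signal, so that the mutant protein, NPM1c, is carried to the cytoplasm by the exportin XPO1. NPM2 is the nucleoplasmin of egg cells, which remodels sperm chromatin. NPM3 is a smaller relative that pairs with nucleophosmin in the nucleolus, and nucleolin, the product of NCL, is an RNA-binding protein of the same compartment that acts in transcription and processing of ribosomal RNA.

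The end of the NPM1 coding sequence is shown because it is the place at which the mutant transcript differs from the normal one. The reference sequences, from GENCODE 29 on GRCh38, plus strand, are the last coding exon with its stop codon of the main transcript NPM1-201 (chr5:171410527-171410565) and of the shorter NPM1-203 (chr5:171406397-171406405). Capitals mark the TCTG (chromosome 5, 171410540 to 171410543) that is repeated in the common type of the mutation; the allele of this line was not read here, and the sequence and exact target of the siRNA are not known from the labels.
NPM1-201: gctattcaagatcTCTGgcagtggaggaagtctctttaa
NPM1-203: gcgcattga
In NPM1-201 the TGG codons 288 and 290, of 294 in all, encode the anchoring tryptophans, and the first of them overlaps the capitals. The NPM1-203 transcript uses another last exon, ends after codon 259 and does not hold the capitals. Of 6 coding NPM1 transcripts in GENCODE 29, 3 hold this stretch. The table gives 1 count per gene, so transcripts with and without the stretch, and those of either allele, were added together.

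Total counts ran from 15075235 to 25190122 per library. Ribosomal RNA took 63.8% ± 0.753 (SD, n = 3) of them in siControl and 70.2% ± 0.813 in siNPM1c, and protein-coding genes took 28.5% ± 0.457 and 21.8% ± 0.495. The part of this difference in the results was not tested beyond the scalings given with them. Of 10 myeloid and blast markers, 9 reached 10 counts in some library, and the stem cell receptor gene KIT had at most 2 counts. Levels are in CPM, scaled counts per 1000000. The myeloid list summed to 425 to 430 CPM in siControl and 502 to 518 CPM in siNPM1c. Of 9 tested, 6 were called higher and 2 lower at an adjusted p under 0.05. Of all genes tested, 21.3% were called higher and 21.4% lower. The part of these marker differences in the results was not tested. Of 12 markers of lymphoid, erythroid, platelet, stromal and epithelial cells, CD3D, HBB and PF4 were at 0 in all libraries, and the list summed to 1.63 to 2.61 CPM in siControl and 1.28 to 3.25 CPM in siNPM1c.

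NPM1 transcripts were lower in the siNPM1c libraries, at 46.6% of the control level, whereas transcripts of NPM3 and NCL stayed close to their control level, and those of NPM2 were nearly absent. Of the 4 members, 3 passed the filter on low counts. Among these, 1 (NPM1) was called lower at an adjusted p under 0.05, as were 21.4% of the 12938 genes tested, and 1 (NCL) was called higher, as were 21.3%. A call by itself is thus common in this comparison, in which 42.7% of genes were called in either direction. The size of the NPM1 change was less common, with 136 genes, or 1.05% of those tested, having a lower log2 fold change.

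NPM1 (Entrez gene 4869, chromosome 5, 171387116 to 171410900, plus strand) had raw counts of 922, 1366 and 922 in siControl replicates 1, 2 and 3 and of 293, 500 and 350 in siNPM1c replicates 1, 2 and 3. Scaled by TMM (trimmed mean of M values, which sets the middle of the genes to no change) to CPM, its levels were 51.2, 49.4 and 49.6 CPM in siControl and 22.01, 23.9 and 23.6 CPM in siNPM1c. All siNPM1c libraries lay below all siControl libraries, a separation that 49.2% of the genes tested showed in either direction and 24.9% in this one. The group means were 50.1 ± 0.984 CPM and 23.2 ± 1.02 CPM (SD, n = 3), and the log2 fold change, siNPM1c minus siControl, was -1.10 ± 0.05 (SE; adjusted p = 4.35e-51 in the quasi-likelihood test of edgeR). The transcript level that remained was 46.6% of control, with a 95% interval of 43.3% to 50.1%. In these bulk samples fewer cells with the transcript and less of it per cell cannot be told apart.

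The remaining level depended on what it was measured against. Per 1000000 protein-coding counts, which needs no TMM scaling, NPM1 was at 207 ± 3.80 (SD, n = 3) in siControl and 90.6 ± 4.15 in siNPM1c. When the library sizes alone were used, the median of all genes moved to -0.48 on the log2 scale and NPM1 remained at 33.6% of control. With a correction for GC content (41.7% for NPM1, the median over its transcripts) it remained at 52.7%. NPM1 was called lower under every one of the 18 alternatives run.

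RefSeq lists 50 pseudogenes of NPM1, whose sequences can match NPM1 reads. None of these has a row in the table, and neither do the 2 listed pseudogenes of NCL, so that no reads were credited to them; the handling of reads that fit several places was not given in the sources used here. By RefSeq coordinates no other row of the table overlaps NPM1, NPM2 or NPM3.

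**Figure D1:**
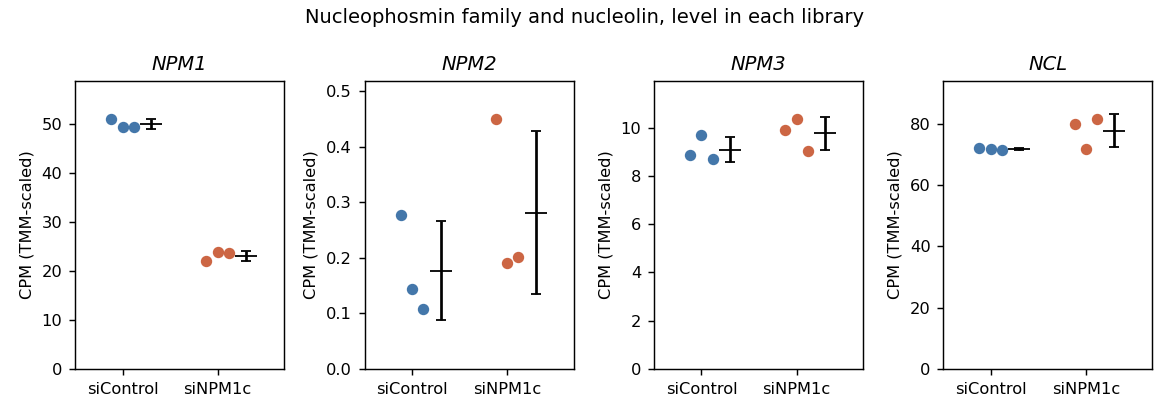
Level of each member in CPM scaled by TMM, with 1 point per library and, beside the points, the mean with its SD (n = 3); each vertical axis has its own range and starts at 0. NPM1 separates the groups at about 50 against 23 CPM, while the points of NPM2, NPM3 and NCL overlap between groups.

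NPM3 (Entrez gene 10360, chromosome 10, 101781325 to 101783446, minus strand), the close relative of nucleophosmin, had raw counts of 160, 268 and 162 in siControl against 132, 217 and 134 in siNPM1c. Its scaled levels were 8.89, 9.70 and 8.71 CPM against 9.92, 10.4 and 9.04 CPM, and the groups overlapped. The log2 fold change was 0.10 ± 0.10 (SE; adjusted p = 0.43 by edgeR's quasi-likelihood test), with a 95% interval from -0.09 to 0.30. In percent of control the interval runs from 93.7% to 123%. A change of NPM3 as large as that of NPM1 lies outside it. A fall of a few percent, or a larger rise up to the upper limit, does not. Per 1000000 protein-coding counts NPM3 was at 37.5 ± 2.19 and 38.2 ± 2.54 (SD, n = 3).

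Nucleolin, NCL (Entrez gene 4691, chromosome 2, 231453531 to 231464484, minus strand), was the member with most counts, with 1297, 1981 and 1330 in siControl and 1065, 1498 and 1212 in siNPM1c. Its scaled levels were 72.0, 71.7 and 71.5 CPM in siControl and 80.0, 71.7 and 81.8 CPM in siNPM1c. Replicates 1 and 3 of siNPM1c lay above all controls, and replicate 2 lay among them. The log2 fold change was 0.11 ± 0.04 (SE), with a 95% interval from 0.03 to 0.18 (adjusted p = 0.0149 in the quasi-likelihood test of edgeR), that is 108% of control.

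This call rested on single libraries and on the method. It was lost without siNPM1c replicate 1 (0.09 log2, adjusted p = 0.067) and without siNPM1c replicate 3 (0.07 log2, adjusted p = 0.175), in DESeq2 (0.12 log2, adjusted p = 0.0801) and with no filter on low counts (0.08 log2, adjusted p = 0.0953). With library sizes alone both NPM3 and NCL turned to a lower level in siNPM1c, and both were called lower. The log2 fold changes were -0.36 for NCL (adjusted p = 6.13e-15 by edgeR) and -0.37 for NPM3 (adjusted p = 0.000618). Each lay above the median of -0.48 of all genes in that setting, where 71.5% of genes were called lower. Per 1000000 protein-coding counts NCL was at 296 ± 0.724 and 304 ± 21.7 (SD, n = 3), and the groups overlapped.

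The introns of NCL host the small nucleolar RNAs SNORD20, SNORD82 and SNORA75, which guide modification of ribosomal RNA. Their rows lie inside that of NCL. SNORD20 had 10, 19 and 14 counts in siControl and 7, 17 and 14 in siNPM1c, with a log2 fold change of 0.21 ± 0.35 (SE; adjusted p = 0.667 by edgeR's quasi-likelihood test). SNORA75 had 0 to 4 counts in each library and SNORD82 had 1 count in siControl replicate 3 and 0 elsewhere, and both fell below the filter. A difference in these RNAs was not detectable at this depth.

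NPM2 (Entrez gene 10361, chromosome 8, 22024134 to 22036897, plus strand), the egg nucleoplasmin, had 5, 4 and 2 counts in siControl against 6, 4 and 3 in siNPM1c. Summed over 3 libraries these were 11 and 13 counts, or 0.171 CPM (exact Poisson 95% interval 0.0855 to 0.306) and 0.265 CPM (0.141 to 0.453). The intervals cover counting error only, and they overlap. The gene did not pass the filter on low counts, so it has no test here, and no difference was detectable at this depth.

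Per length of the merged exons, NPM1 had the highest level of the members in control cells, at 13.1 ± 0.257 CPM per kilobase (SD, n = 3), followed by NCL at 10.4 ± 0.0372 and NPM3 at 9.80 ± 0.566, whose ranges overlapped, and by NPM2 at 0.0856 ± 0.0434. In siNPM1c cells NCL (11.2 ± 0.778 CPM per kilobase) and NPM3 (10.5 ± 0.735) again overlapped, and NPM1, at 6.06 ± 0.268, lay below both in every library. With the longest transcript as the length, control cells showed the same order, with 28.5, 17.8 and 10.4 CPM per kilobase for NPM1, NCL and NPM3. In siNPM1c cells NPM1 (13.2) then lay below NCL (19.3) but above NPM3 (11.1). The place of NPM1 relative to NPM3 after the siRNA thus depended on the length used.

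Ratios of counts within a library do not depend on how libraries are scaled, and they give the test of whether members changed by different amounts. For each NCL count there were 0.711, 0.690 and 0.693 NPM1 counts in siControl and 0.275, 0.334 and 0.289 in siNPM1c. The mean ratio went from 0.698 ± 0.0114 to 0.299 ± 0.0307 (SD, n = 3), a log2 difference of -1.23 ± 0.08 (SE). The ratio of NPM1 to NPM3 was 5.76, 5.10 and 5.69 against 2.22, 2.30 and 2.61, a log2 difference of -1.21 ± 0.09 (SE). In both ratios the groups were separate. The ratio of NPM3 to NCL was 0.123, 0.135 and 0.122 against 0.124, 0.145 and 0.111, where the groups overlapped, with a log2 difference of -0.01 ± 0.12 (SE). The exact permutation test, two-sided with 3 libraries a group, gave p = 0.1 for each of the first 2 ratios, the smallest p that this design allows, and p = 1 for the third, or 0.15, 0.15 and 1 after Benjamini-Hochberg adjustment over the 3 pairs compared.

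**Figure D2:**
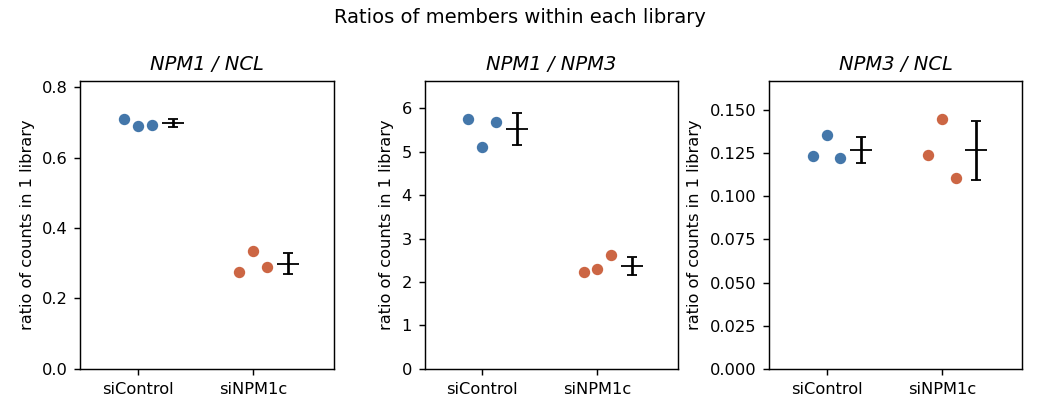
Ratio of raw counts of 2 members within each library (1 point per library, with the mean and SD beside them, n = 3; axes start at 0). NPM1 to NCL and NPM1 to NPM3 are lower in every siNPM1c library, at means of 0.299 and 2.38, and NPM3 to NCL overlaps between groups.

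**Figure D3:**
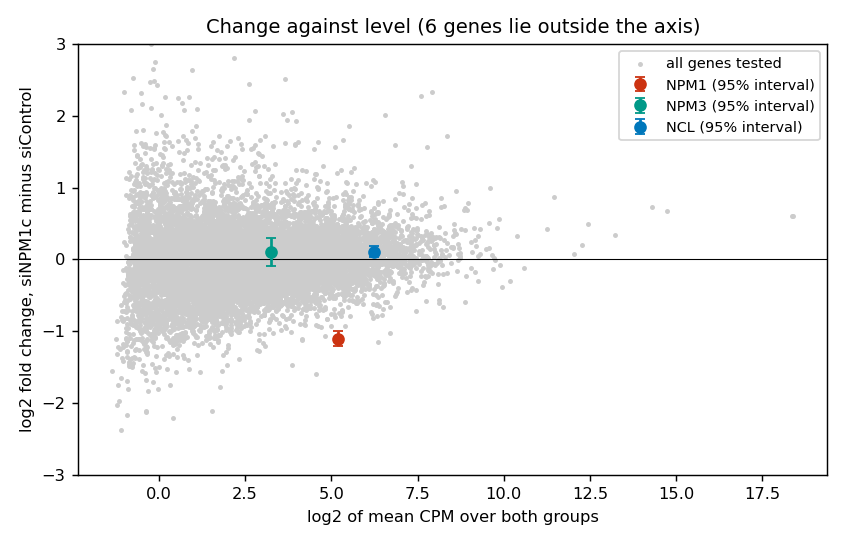
Log2 fold change, siNPM1c minus siControl, against the log2 of mean CPM for all 12938 genes tested (grey), with NPM1, NPM3 and NCL and their 95% intervals; 6 genes lie outside the vertical axis. NPM1, at -1.10, lies at the lower edge of the genes of its level, and NPM3 and NCL lie within the bulk near 0.

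Most genes beside the members on the chromosome had few or no counts, which does not show that they were not expressed. Of those tested, XPO7 was called lower, DOK2, OGA and ARMC9 were called higher, and FBXW4 and NMUR1 were not called. Across all genes tested, 42.7% were called in either direction. The closest rows on each side of NPM1, SNORA70J and MIR3912 before it, were at 0 in all libraries, and FGF18 and SMIM23 after it had 0 to 4 and 0 to 2 counts per library, too few to say whether they changed. Beside NPM2, XPO7, a nuclear export receptor, fell from 26.0 ± 0.792 to 18.2 ± 0.298 CPM (SD, n = 3), and DOK2, an adaptor of myeloid signalling, rose from 43.6 ± 1.77 to 57.2 ± 1.77 CPM, while DMTN and FGF17 had at most 5 counts. Beside NPM3, OGA, the enzyme that removes O-linked N-acetylglucosamine, was higher by 0.22 ± 0.09 log2 (SE; adjusted p = 0.0315 by edgeR), a call lost in DESeq2 (adjusted p = 0.114), with no filter on low counts (adjusted p = 0.0913) and without siControl replicate 1, siNPM1c replicate 1 or siNPM1c replicate 3 (adjusted p = 0.155, 0.103 and 0.16). FBXW4 was at 0.10 ± 0.08 (adjusted p = 0.342), and FGF8 and KCNIP2-AS1 had at most 10 counts. Beside NCL, ARMC9, a protein of the primary cilium, rose 2.07-fold from 3.26 ± 0.489 CPM, NMUR1 was at -0.03 ± 0.17 (adjusted p = 0.919), and B3GNT7 and LINC00471 had at most 11 counts.

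The lists that follow were assembled around the members from known partners, and each is described by its counts beside those of all genes tested, in which 21.4% were lower, 21.3% were higher and the median log2 fold change was -0.01. The first holds proteins that share the nucleolus with nucleophosmin and nucleolin. Of 22 tested, 8 fell (36.4%) and 3 rose, with a median of -0.07. The ribosomal protein gene RPL5, whose product binds nucleophosmin on its way out of the nucleus, fell from 70.4 ± 3.69 to 48.0 ± 1.33 CPM (SD, n = 3). DDX21, a helicase of ribosomal RNA synthesis, fell from 13.4 ± 0.543 to 9.30 ± 0.479 CPM, and RPL23 fell by 0.35 (SE 0.07) on the log2 scale. UBTF, the activator of RNA polymerase I on ribosomal genes, rose by 0.21 ± 0.05. The assembly factor genes SURF6 (0.19 ± 0.07) and NOP53 (0.14 ± 0.05) were called higher with adjusted p of 0.0169 and 0.0219 by edgeR, and both calls were lost in DESeq2 (adjusted p = 0.0917 and 0.0947), with no filter on low counts (adjusted p = 0.0588 and 0.0981) and with the GC correction (adjusted p = 0.173 and 0.41). They were also lost for SURF6 without siNPM1c replicate 1 or 2 (adjusted p = 0.137 and 0.0964) and for NOP53 without siControl replicate 2 or siNPM1c replicate 3 (adjusted p = 0.0996 and 0.0885). In DESeq2 4 of the 22 fell and 1 rose, where 13.6% of all genes fell and 16.1% rose. With no filter on low counts 1 rose, where 11.1% of all genes did. Under library sizes alone 21 fell and 0 rose, where 71.5% of all genes fell and 3.92% rose.

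Histone chaperones, to which nucleophosmin itself belongs, were lower in 9 of 25 tested (36%) and higher in 3, with a median of -0.04. The gene that moved most was PTMA, for prothymosin alpha, an acidic protein that binds linker histone, which rose 1.90-fold from 86.3 ± 3.00 to 165 ± 14.6 CPM (SD, n = 3). HIRA (0.25 ± 0.05 log2, SE) and its partner UBN1 (0.17 ± 0.05), which deposit the replacement histone variant outside replication, were also called higher. SSRP1, a subunit of the FACT complex that opens nucleosomes for polymerases, fell from 47.5 ± 0.316 to 37.8 ± 3.83 CPM. NAP1L1, a carrier of core histone pairs, fell by 0.55 (SE 0.08), and RBBP7, a histone-binding subunit of several chromatin complexes, fell by 0.66 (SE 0.12) on the log2 scale. Of the list, ASF1A did not pass the filter on low counts. Under library sizes alone 24 fell and 1 rose, beside 71.5% and 3.92% of all genes. The count of genes that rose was 7 with the GC correction, 6 with protein-coding genes only and 5 without siNPM1c replicate 3, where 21%, 22.5% and 19.5% of all genes rose.

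Among 17 tested genes for proteins that bind nucleophosmin or are known to be displaced by NPM1c, 6 rose and 5 fell (29.4%), with a median of -0.03. CDKN2A, the locus of ARF, had 6.03 ± 1.37 CPM in siControl and 14.8 ± 1.33 CPM in siNPM1c (SD, n = 3) and rose 2.50-fold; its row adds the transcripts of ARF and of the kinase inhibitor made from the same locus. SPI1, for the myeloid factor PU.1, which NPM1c carries to the cytoplasm, rose from 79.5 ± 1.65 to 124 ± 1.8 CPM. PML, the scaffold of nuclear bodies, rose from 93.2 ± 4.97 to 144 ± 2.16 CPM, and HEXIM1, an inhibitor of transcription elongation that binds NPM1c, by 0.30 ± 0.06 log2 (SE).

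On the lower side of this list, XPO1, the export receptor of NPM1c, fell by 0.34 (SE 0.05) on the log2 scale, a call lost with the GC correction (-0.07 log2, adjusted p = 0.304). APEX1, a DNA repair enzyme bound by nucleophosmin, was at -0.20 ± 0.06 and called lower by edgeR, a call lost in DESeq2 (adjusted p = 0.0631). MYC was at -0.13 ± 0.05 with an adjusted p of 0.0271 by edgeR. That call was lost in DESeq2 (adjusted p = 0.142) and without siControl replicate 3, siNPM1c replicate 1 or siNPM1c replicate 2 (adjusted p = 0.143, 0.084 and 0.145). FBXW7, the ubiquitin ligase subunit for MYC that NPM1c displaces, was at 0.20 ± 0.09 and was not called (adjusted p = 0.0596), but was called higher with the GC correction (0.32 log2, adjusted p = 0.00108) and with protein-coding genes only (adjusted p = 0.0421). The ends of the range of this list were CASP6 (-1.25 ± 0.40) and TFAP2A (1.27 ± 0.38), both under 1 CPM in each group on average and both named after their values were seen. In this list 2 genes fell in DESeq2, 3 without siNPM1c replicate 2 and 12 under library sizes alone, where 13.6%, 16.6% and 71.5% of all genes fell.

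Among 17 tested genes for enzymes that modify nucleophosmin or nucleolin, 7 fell (41.2%) and 1 rose, with a median of -0.07. CDK1, the mitotic kinase that phosphorylates both proteins, fell from 5.23 ± 0.207 to 2.05 ± 0.380 CPM (SD, n = 3). The log2 fold changes of the cell cycle kinases CDK2 and CDK6 were -0.52 ± 0.11 and -0.18 ± 0.03, both called lower. SIRT7, a nucleolar deacetylase, was at 0.23 ± 0.07 and called higher (adjusted p = 0.00297 by edgeR), a call lost without siControl replicate 3 (adjusted p = 0.0761) and with the GC correction (adjusted p = 0.0864). EP300, an acetyltransferase for nucleophosmin, had a log2 fold change of -0.00 ± 0.04 (adjusted p = 0.949) at 65.3 ± 1.62 and 65.4 ± 2.17 CPM. Of these enzymes 3 fell in DESeq2, 3 without siNPM1c replicate 3, 4 with the GC correction and 16 under library sizes alone, where 13.6%, 18.6%, 18.8% and 71.5% of all genes fell.

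NPM1 and NCL are known to be activated by MYC, and 27 genes of a list of MYC itself and other genes that it activates were tested. Of these, 11 fell (40.7%) and 3 rose, with a median of -0.12. LDHA, for lactate dehydrogenase, fell from 102 ± 1.60 to 65.1 ± 0.346 CPM (SD, n = 3), and UTP20 and WDR43, components of the processome that assembles the small ribosomal subunit, fell with log2 fold changes of -0.91 ± 0.13 and -0.91 ± 0.14. PPAN (0.54 ± 0.12), PUS1 (0.29 ± 0.08) and RRP12 (0.19 ± 0.04) were higher. Under library sizes alone the call of PPAN was lost (adjusted p = 0.611 by edgeR). In that setting PUS1 (-0.18, adjusted p = 0.035) and RRP12 (-0.28, adjusted p = 1.3e-07) were called lower. HSPE1 did not pass the filter. Of this list 6 fell in DESeq2, 7 without siNPM1c replicate 2 and 26 under library sizes alone, where 13.6%, 16.6% and 71.5% of all genes fell. Some genes stand in 2 lists, as SENP3, MYC, NOP56, DKC1, GNL3, BOP1, NOLC1 and MYBBP1A do.

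**Figure D4:**
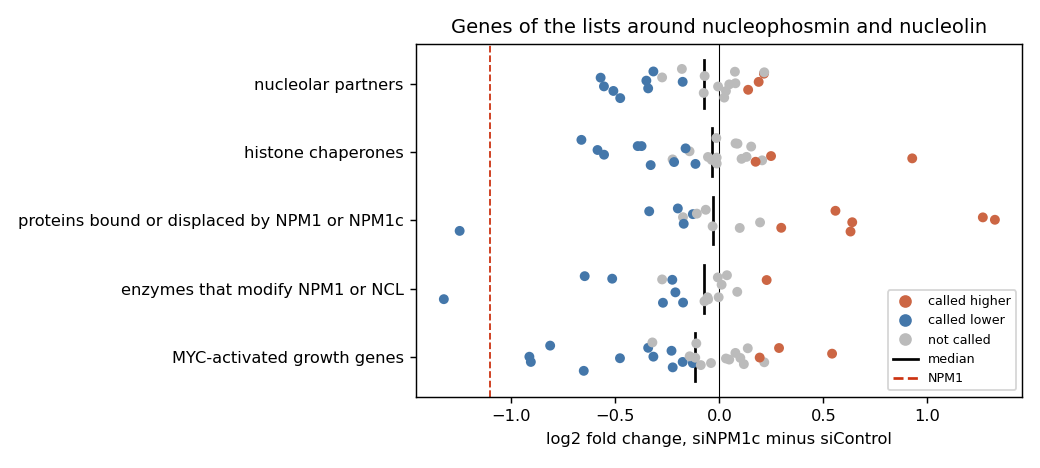
Log2 fold change, siNPM1c minus siControl, of the tested genes of 5 lists (1 point per gene, spread vertically for legibility; colours give the call at an adjusted p under 0.05, black bars the list median, the dashed line NPM1). The medians run from -0.12 to -0.03, near 0, and CDK1 and CASP6 are the genes that lie beyond NPM1 on the lower side.

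By pattern over the 6 libraries, the genes most like NPM1 among 7391 with a mean of at least 5 CPM were ADGRA3, UNCX and FAM135B, where likeness is the root-mean-square difference of log2 CPM after each gene is centred on its own mean. ADGRA3, an adhesion receptor gene, differed from NPM1 by 0.0421 and went from 24.2 ± 0.596 to 11.1 ± 0.679 CPM (SD, n = 3). UNCX, a homeobox gene, differed by 0.0495 and went from 139 ± 2.38 to 68.1 ± 3.39 CPM, and FAM135B differed by 0.0639. Their Pearson correlations with NPM1 were 0.993 to 0.998 over 6 libraries, which fall into 2 groups that set most of this value. Nearest to NPM3 were MARK2 (0.016), CXCL8 (0.033) and LRFN1 (0.0338), and nearest to NCL were UBE2S (0.0212), FAM193B (0.023) and DUSP7 (0.0233). These genes changed by 0.10 to 0.14 on the log2 scale, and among them CXCL8 (adjusted p = 0.0341) and DUSP7 (adjusted p = 0.0145) were called by edgeR. Both calls were lost in DESeq2 (adjusted p = 0.127 and 0.0666) and with no filter on low counts (adjusted p = 0.129 and 0.0974). That of CXCL8 was also lost with upper-quartile factors (adjusted p = 0.0619) and without siControl replicate 1 or 3 or siNPM1c replicate 1 or 2 (adjusted p = 0.109, 0.082, 0.0643 and 0.207), and that of DUSP7 with the GC correction (adjusted p = 0.537) and without siNPM1c replicate 1 or 3 (adjusted p = 0.0645 and 0.0764). UBE2S was called higher with protein-coding genes only (adjusted p = 0.0444) and without siNPM1c replicate 2 (adjusted p = 0.0188), and MARK2 without siControl replicate 2 or siNPM1c replicate 3 (adjusted p = 0.0393 and 0.0357).

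**Figure D5:**
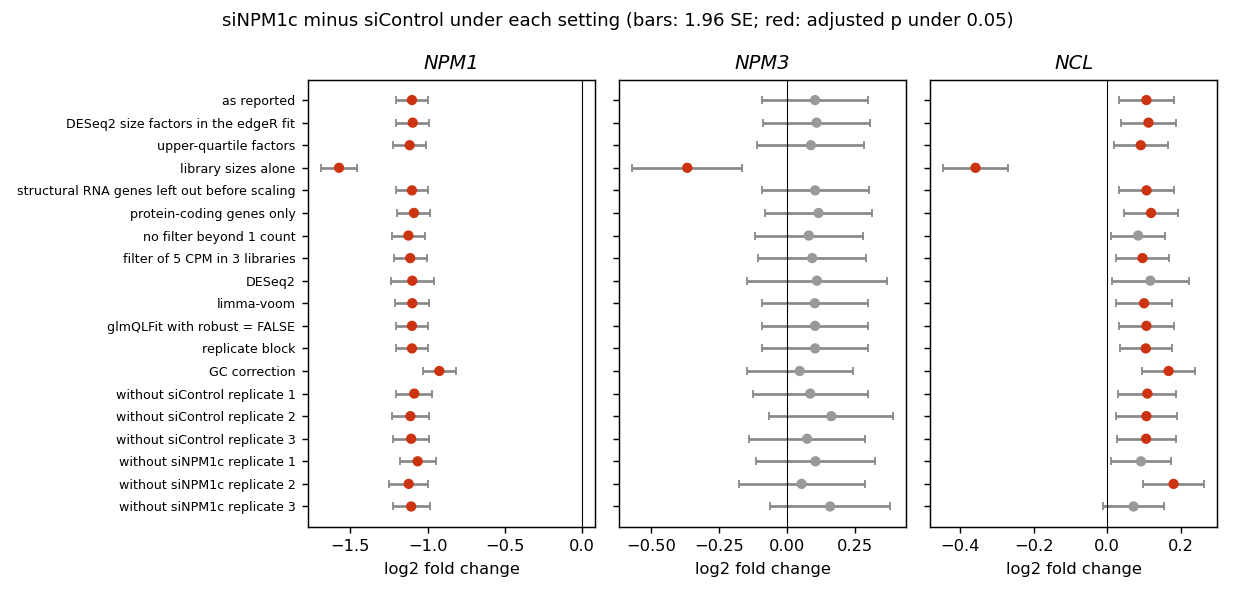
Log2 fold change, siNPM1c minus siControl, of NPM1, NPM3 and NCL as reported and under 18 alternatives (points; bars are 95% intervals; red marks an adjusted p under 0.05; each panel has its own horizontal range). NPM1 lies between -1.57 and -0.92 throughout, whereas NPM3 and NCL turn from above to below 0 under library sizes alone.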

How the data were processed

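The authors deposited 1 table of raw read counts per gene (Entrez identifiers, whole numbers, no normalization), with 1 column per library named in the labels. The submitters' processing notes list, without roles, the aligner STAR 2.7.5a, cutadapt 2.6, CASAVA 1.8 and DESeq2 1.34.0, and 2 builds, hg38 and mm10. The sources used here do not give the counting tool, annotation or strand setting. Symbols and gene coordinates came from RefSeq (GRCh38.p14), which matched 28261 of 28307 rows, and lengths, GC content and sequences from GENCODE 29 on GRCh38.

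Replicates differed by more than sampling noise (chi-square per degree of freedom 1.46 to 2.36 within groups and 23.9 to 38.5 between). That measure took in all rows with at least 20 counts in a pair of libraries, ribosomal RNA included. The common coefficient of variation between replicates in the edgeR fit was 2.17%. Each library counted as 1 replicate, and neither value shows whether the libraries came from separate cultures. Counts were fitted over all genes in R 4.3.3 with edgeR 4.0.16: filterByExpr (minimum count 10, minimum total 15), TMM, glmQLFit with robust = TRUE and glmQLFTest, two-sided, Benjamini-Hochberg over 12938 genes. SE is the size of the log2 fold change over the root of F, and 95% intervals use the normal quantile. The method was tested on simulated data, whose settings and outcome are not reported here, so no error rate for this design is given. Alternatives used DESeq2 1.42.0 and limma 3.58.1 among others.

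Named genes were the members, pseudogenes, snoRNAs inside NCL, 2 neighbours on each side, up to 3 genes with the smallest p per list and direction, XPO1, CDKN2A, FBXW7, MYC, HEXIM1, SPI1 and EP300, and the 3 genes most like each member. The members, lists and tests were chosen with earlier results of these data known. Some genes that this rule names are not reported here.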

Additional observations from a re-analysis of the deposited data

How the results depend on the processing

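NPM1 kept its direction and its call under all 18 alternatives to the fit (log2 fold change -1.12 to -1.07 without single libraries). NPM3 kept both under 17 of 18, and NCL under 13 of 18. Without single libraries NPM3 ran from 0.05 to 0.16 and NCL from 0.072 to 0.18. The replicate block gave -1.10 for NPM1, 0.10 for NPM3 and 0.10 for NCL, and changed no call of a member; deviations of libraries with the same number correlated at 0.0193, -0.00266 and -0.00408, and not every library correlated best with its own number, so the number was not taken as a pairing. NCL was no longer called in DESeq2 (0.12) or without a filter on low counts (0.084). Library sizes alone gave -0.37 for NPM3 and -0.36 for NCL, both called lower, and 9253 genes lower and 507 higher in place of 2766 and 2757. DESeq2 gave 1754 lower. The log2 differences without single libraries ran from -1.31 to -1.17 for NPM1 to NCL, from -1.28 to -1.17 for NPM1 to NPM3 and from -0.11 to 0.081 for NPM3 to NCL, which turned positive without siControl replicate 2 (0.036) and siNPM1c replicate 3 (0.081). The value of NPM2, 0.67 from few counts, ran from 0.16 to 1.16 without single libraries.

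Of 48 named genes tested, 22 kept direction and call in all alternatives run. Library sizes alone turned the sign of CXCL8 (-0.33), DOK2 (-0.072), DUSP7 (-0.36), FAM193B (-0.36), FBXW4 (-0.37), FBXW7 (-0.27), HEXIM1 (-0.17), HIRA (-0.22), LRFN1 (-0.37), MARK2 (-0.37), NOP53 (-0.33), OGA (-0.25), PUS1 (-0.18), RRP12 (-0.28), SIRT7 (-0.24), SNORD20 (-0.26), SURF6 (-0.28), UBE2S (-0.35), UBN1 (-0.29) and UBTF (-0.26). All of these except DOK2 and SNORD20 (adjusted p = 0.186 and 0.509 by edgeR) were called lower in that setting. EP300 and NMUR1 kept their sign and were also called lower there (-0.47 and -0.49, adjusted p = 5.45e-23 and 0.00768). EP300, at -0.00 as reported, turned to 0.0017 with DESeq2 size factors, 0.0039 in DESeq2, 0.0088 with protein-coding genes only and 0.081 with the GC correction, and ran from -0.021 to 0.027 without single libraries. LRFN1 turned to -0.020 with the GC correction, and NMUR1 ran from -0.096 to 0.15 without single libraries. The cause of these changes was not tested. A count under about 10 per library, as for NPM2, SNORA75 and SNORD82, sets a limit that no alternative removes.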
